A study of Arabidopsis thaliana with 26 samples.

Results

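Typhasterol is a late intermediate of brassinosteroid synthesis, and the transcript response of Arabidopsis thaliana seedlings to it was measured on 2 arrays of typhasterol-treated seedlings, set against 2 arrays of mock-treated seedlings. These 4 arrays were chosen by their treatment labels alone from the 26 Affymetrix ATH1 arrays of the series, which form 13 groups of 2. The typhasterol seedlings had been given 1 µM typhasterol for 3 h and the mock seedlings a mock treatment of the same length. The groups used beside them were 6-deoxotyphasterol, 3-dehydroteasterone and teasterone, each at 1 µM for 3 h. Values are also given for castasterone at 100 nM, brassinolide at 10 nM and campestanol at 10 µM, each for 3 h, and the plot of levels in all 13 groups shows the remaining compounds with their doses. All groups were whole plants 7 days old of the Col background from seed stock N6159, described as de-etiolated. The sources used here give no genotype for that stock, and the plants are therefore not called wild type. The arrays of a group carry the letters A and B, and nothing says that these were separate cultures. The p-values therefore rest on the spread among arrays alone, and this spread may be technical.

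Brassinosteroids are plant steroid hormones that promote cell expansion. The hormone is bound at the cell surface by the receptor kinase BRI1, and the signal releases the transcription factors BZR1 and BES1 from inhibition by the kinase BIN2, so that genes of cell wall loosening and growth are turned on and genes of hormone synthesis are turned down. Typhasterol carries a ketone at C-6 and a hydroxyl at C-3. It is formed by reduction of the C-3 ketone of 3-dehydroteasterone and is hydroxylated at C-2 to castasterone, from which brassinolide, the most active member of the family, is made. The comparison with mock asks which transcripts differ in level after 3 h of typhasterol.

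The values are MAS5 intensities, a linear measure of the brightness of a probe set, and are comparable between arrays for 1 probe set but not between probe sets. Of 22810 probe sets, 64 were controls and 17606 had a mean intensity of at least 10 over the 26 arrays, and these were tested. Exactly 1 gene is named for 9861 of them. The trimmed mean intensity was close to 100 on all 26 arrays, so the arrays had already been brought to a common scale. The typhasterol arrays correlated with each other at r = 0.972 and the mock arrays at 0.967 across probe sets, while typhasterol and mock arrays of the same letter correlated at 0.964 and 0.965. Over the whole series the order was reversed. There the median r was 0.973 for arrays of the same letter in different groups and 0.967 for the arrays of a group. The letter itself mattered: 35.8% of the tested probe sets differed between the A and B arrays of the series. The letter was a block in the fit, as the definition of the comparison sets it, and limma made the fit to all 26 arrays on the log2(intensity + 5) scale. All log2 changes below are on that scale, with the standard error of the fit after the ± sign. A probe set is called higher or lower where its Benjamini-Hochberg adjusted p over all tested probe sets was under 0.05.

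After typhasterol, 709 probe sets were called, 4.03% of those tested. Of these, 493 were higher (2.80%) and 216 were lower (1.23%) than in mock, so that more probe sets were called higher than lower. The change reached 2-fold for 233 of the higher and 84 of the lower ones. Among the probe sets that name 1 gene, 223 were higher (2.26%) and 102 lower (1.03%). An unadjusted p under 0.05 (limma) was found at 2330 of the 17606 tested probe sets. The arrays of the 2 groups did not overlap at 699 of the 709, and all 709 moved the same way on the A arrays and on the B arrays. The calls were made on both letters together, so this agreement follows in part from the selection and is no separate support. Non-overlap alone is frequent with 2 arrays a side, and 18.1% of all tested probe sets lay wholly higher and 18.4% wholly lower after typhasterol. The median log2 change was 0.97 among probe sets called higher, -0.87 among those called lower and -0.01 among all tested, and the smallest called change was 0.46 in size. In bulk seedlings, a change in the number of cells that hold a transcript and a change in transcript per cell cannot be told apart.

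The counts depended on the arrays and on the block. The called number was 329 without typhasterol array A, 437 without typhasterol array B, 451 without mock array A and 332 without mock array B, and 312 without the replicate block, of which 233 were higher and 79 lower.

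The A and B arrays share no hybridisation, so the change between typhasterol and mock can be read separately in each letter. The 100 largest rises on the A arrays had a median log2 change of 1.96 there and 1.47 on the B arrays, where 84 of them were positive and 67 were at least 2-fold up. Among all tested probe sets 47.7% were positive and 2.15% at least 2-fold up on the B arrays. The 100 largest falls on the A arrays had a median of -1.57 there and -0.76 on the B arrays, where 87 were negative and 40 at least 2-fold down, against 1.58% of all tested. The rises found on A were thus also large on B in most cases, whereas fewer of the falls were. Over all 17606 probe sets the changes on A and on B correlated at r = 0.41, a description across probe sets that are not independent.

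**Figure D1:**
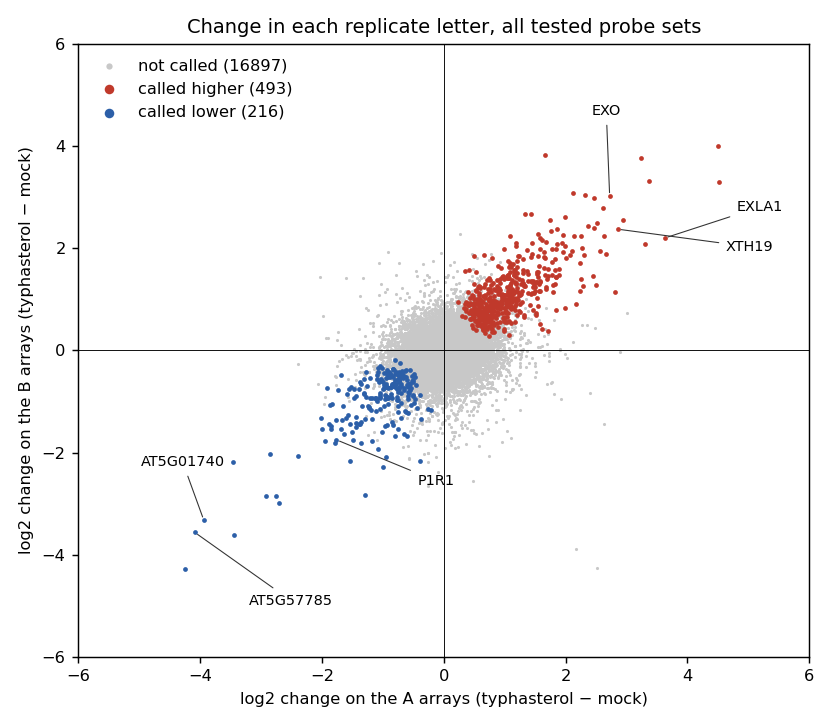
Log2 change (typhasterol minus mock) on the A arrays (x axis) against the same change on the B arrays (y axis), 1 point per tested probe set, with the 493 called higher in red, the 216 called lower in blue and the others in grey. All called probe sets lie to the upper right or lower left of 0, which calling on both letters together favours, while the grey cloud spreads around 0.

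Genes are named one by one where their probe set was called, names exactly 1 gene and did not overlap between the groups, for the 15 rises and 15 falls of greatest size. The rises had adjusted p between 4.88e-08 and 0.000807 (limma), and the falls between 4.53e-08 and 0.0411. They are described below by what their products do. Genes known only by a locus code carry no annotation in the tables used here and are given no role. The gene lists below were matched on symbols and synonyms. A gene known only by a locus code can therefore belong to a family and be missing from its list.

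The gene with the lowest adjusted p among the named rises was EXO (EXORDIUM), a brassinosteroid-responsive gene whose product promotes cell expansion. EXO had an intensity of 1389 and 1125 on the typhasterol arrays A and B, against 206 and 135 on the mock arrays. The lower typhasterol value was more than 5 times the higher mock value. The log2 change was 2.87 ± 0.22, a 7.31-fold rise with a 95% interval of 2.41 to 3.33 on the log2 scale, and it was 2.72 on the A arrays and 3.02 on the B arrays. EXO is the 1 gene of the EXORDIUM family that had a tested named probe set.

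Transcripts for enzymes that cut and rejoin xyloglucan, the hemicellulose that tethers cellulose in the growing wall, were among the largest rises. XTH18 had 445 and 469 after typhasterol, against 53.8 and 75.6 in mock. XTH19 had 546 and 621 after typhasterol, against 71.2 and 116 in mock. XTH33 had 175 and 162 after typhasterol, against 26.6 and 24.5 in mock. In each of these genes the groups were far apart compared with the spread between the arrays of a group, and the log2 changes were 2.75 ± 0.30, 2.61 ± 0.26 and 2.50 ± 0.27. XTH16 rose less, with 337 and 386 after typhasterol against 148 and 126 in mock, a log2 change of 1.37 ± 0.21. XTH18 and XTH19 are adjacent genes of similar sequence, and cross-hybridisation of their probes was not tested.

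The rest of the xyloglucan endotransglucosylase/hydrolase list did not pass the test. Of 8 tested members 4 rose and 0 fell, against 2.26% and 1.03% of all probe sets naming 1 gene, and the median log2 change of the list was 0.86, against -0.01 over all tested. EXGT-A3 changed by 0.34 ± 0.18 and XTH26 by 0.05 ± 0.21. XTH20 changed by -0.30 ± 0.35 and XTH32 by -0.42 ± 0.17, with an adjusted p of 0.259 (limma) for XTH32. The members thus ranged from a rise of 2.75 to values below 0.

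Expansins loosen walls by disrupting contacts between polysaccharides, and 3 of their 15 tested genes rose while 0 fell, against 2.26% and 1.03% of all probe sets naming 1 gene. EXLA1, an expansin-like gene, had 412 and 239 after typhasterol, against 28.8 and 48.0 in mock. Its relative EXLA2 had 133 and 129 after typhasterol, against 22.6 and 11.2 in mock. The alpha-expansin gene EXPA8 had 227 and 188 after typhasterol, against 60.4 and 51.0 in mock. None of the 3 overlapped between the groups, and their log2 changes were 2.91 ± 0.43, 2.69 ± 0.28 and 1.81 ± 0.20. The error of EXLA1 was the largest of the 3, and its change was 3.63 on the A arrays and 2.20 on the B arrays.

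The other expansin genes lay around 0, and the median log2 change of the list was -0.03. EXLA3, the remaining expansin-like A gene, was dim, with 15.9 and 15.6 after typhasterol and 8.50 and 4.94 in mock. Its log2 change of 0.84 ± 0.34 did not pass (adjusted p = 0.231, limma). EXPA4 had a log2 change of -0.03 ± 0.16 and EXPA15 of -0.18 ± 0.20. The lowest was EXPB5, a beta-expansin gene, at -0.63 ± 0.30 (adjusted p = 0.351, limma). Changes among expansins were therefore large in 3 genes and not detected in the other 12 with 2 arrays a group.

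ATPMEPCRB encodes a pectin methylesterase, an enzyme that removes methyl groups from pectin and thereby alters how firmly it gels. It had 449 and 342 after typhasterol, against 66.4 and 88.4 in mock, a log2 change of 2.28 ± 0.30. The value on typhasterol array A was the highest of the 26 arrays, while that on typhasterol array B ranked 8 from the top. The other tested members of the pectin list were PMEPCRF at 0.39 ± 0.22 and PME61 at -0.01 ± 0.39, so 1 of 3 rose and 0 fell, against 2.26% and 1.03% of all probe sets naming 1 gene.

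COB (COBRA), which orients cellulose deposition in expanding cells, had 1285 and 1141 after typhasterol, against 919 and 837 in mock. The groups did not overlap, but the log2 change of 0.46 ± 0.12 was the smallest called, and its call was lost in each fit that left out 1 of the 4 arrays, without the block and after median centring. In the list of cellulose and related synthesis 1 of 3 tested members rose and 0 fell, against 2.26% and 1.03% of all probe sets naming 1 gene, and the others were CSLA03 at 0.57 ± 0.22 (adjusted p = 0.217, limma) and CSLA01 at -0.07 ± 0.36.

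**Figure D2:**
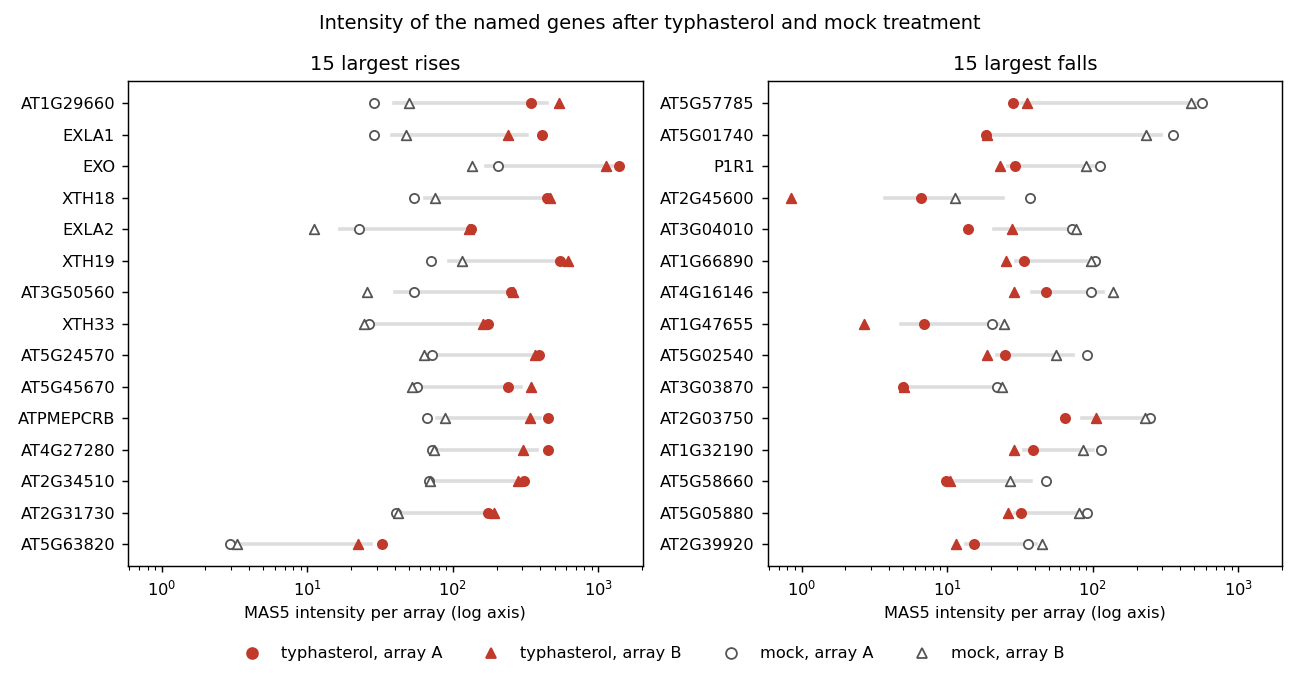
MAS5 intensity (log axis) of the 15 largest rises (left) and the 15 largest falls (right), with typhasterol arrays in red, mock arrays as open symbols, circles for A, triangles for B and a grey bar joining the group means. In every row the red and the open symbols are separated, by the widest gap for AT1G29660 among the rises and for AT5G57785 among the falls.

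The remaining 8 of the 15 named rises are known by locus code only. AT1G29660 rose most, with 345 and 540.3 after typhasterol against 28.9 and 49.9 in mock. Its log2 change of 3.34 ± 0.31 corresponds to a 10.1-fold rise, and it was nearly the same on A (3.37) and B (3.31). The next gene on the chromosome, AT1G29670, also rose, with 1507 and 988 after typhasterol against 763 and 494 in mock and a log2 change of 0.99 ± 0.17. AT3G50560 had 252 and 258 after typhasterol, against 54.1 and 25.9 in mock. AT5G24570 had 394 and 365 after typhasterol, against 72.1 and 63.0 in mock. These genes changed by 2.61 ± 0.30 and 2.41 ± 0.29, with no overlap of the groups.

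AT5G45670 had 241 and 345 after typhasterol, against 56.6 and 52.5 in mock, and AT4G27280 had 449 and 303 after typhasterol, against 71.5 and 74.6 in mock. Their mock arrays lay close together, and their log2 changes were 2.30 ± 0.26 and 2.26 ± 0.22. AT2G34510 had 309.7 and 283 after typhasterol, against 68.2 and 69.6 in mock, and AT2G31730 had 176 and 191 after typhasterol, against 40.4 and 42.2 in mock. Both changed by a log2 value close to 2 (2.03 ± 0.25 and 2.02 ± 0.26). AT5G63820 was dim, with 32.6 and 22.3 after typhasterol against 2.96 and 3.27 in mock. No detection calls were used here, so its mock level may lie below what the array can measure, and its log2 change of 1.98 ± 0.34 depends on the added 5. It was also the 1 named rise that lost its call in leaving out an array, with an adjusted p of 0.0513 (limma) without typhasterol array A.

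The probe sets with the largest rises of all name no gene in the platform table. Probe set 247925_at had 1023 and 687 after typhasterol, against 40.1 and 38.1 in mock, and 245757_at had 374 and 189 after typhasterol, against 11.5 and 14.8 in mock. Their log2 changes of 4.26 ± 0.39 and 3.91 ± 0.49 exceed that of each named gene. The named genes therefore do not include the strongest responses on the array.

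The largest fall of a named gene was that of AT5G57785. It had 28.4 and 35.7 after typhasterol, against 564 and 475 in mock. The log2 change of -3.83 ± 0.28 was larger in size than any named rise, and it was -4.09 on the A arrays and -3.56 on the B arrays. The neighbouring gene P1R1 had 29.3 and 23.1 after typhasterol, against 112 and 89.5 in mock, a log2 change of -1.76 ± 0.21 that was almost equal on A (-1.77) and B (-1.75). AT5G01740 had 18.5 and 18.7 after typhasterol, against 356 and 233 in mock. Its typhasterol arrays were nearly identical and its log2 change was -3.63 ± 0.31.

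Below these 3 genes the falls were smaller. AT3G04010 had 14.0 and 27.9 after typhasterol, against 71.7 and 77.1 in mock, a log2 change of -1.67 ± 0.27. Both typhasterol arrays lay below each of the other 24 arrays, of which the lowest had 31.9. AT2G45600 changed by the same amount, -1.67 ± 0.35, with 6.62 and 0.846 after typhasterol against 36.9 and 11.4 in mock. Its typhasterol arrays too were below all others, of which the lowest had 7.18, but these intensities are close to the lowest on the array. AT1G66890 had 33.9 and 25.3 after typhasterol, against 104 and 97.4 in mock, a log2 change of -1.62 ± 0.21.

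AT4G16146 had 47.7 and 28.7 after typhasterol, against 96.9 and 138 in mock, and AT5G02540 had 25.2 and 18.7 after typhasterol, against 90.8 and 55.7 in mock. The groups did not overlap in either gene, and the log2 changes were -1.52 ± 0.22 and -1.51 ± 0.23. AT2G03750 was brighter, with 64.4 and 106 after typhasterol against 248 and 227 in mock (-1.47 ± 0.21). AT1G32190 had 38.8 and 28.9 after typhasterol, against 115 and 86.1 in mock (-1.44 ± 0.25). AT5G05880 had 31.98 and 26.3 after typhasterol, against 91.7 and 80.4 in mock, and its log2 change of -1.42 ± 0.17 had the smallest error among the named falls.

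The other 4 named falls were dim after typhasterol. AT1G47655 had 6.98 and 2.68 after typhasterol, against 20.4 and 24.5 in mock, and AT3G03870 had 4.99 and 5.09 after typhasterol, against 22.2 and 23.7 in mock. AT5G58660 had 9.90 and 10.5 after typhasterol, against 48.0 and 26.9 in mock, and AT2G39920 had 15.3 and 11.5 after typhasterol, against 36.2 and 44.8 in mock. Their log2 changes lay between -1.51 ± 0.41 for AT1G47655 and -1.30 ± 0.28 for AT2G39920. These 4 genes and AT2G45600 each lost their call when at least 1 of the 4 arrays was left out, with adjusted p up to 0.329, 0.151, 0.111, 0.116 and 0.165 (limma). For AT1G47655 and AT3G03870 each array did so, for AT5G58660 typhasterol array A and mock array A, for AT2G39920 both B arrays, and for AT2G45600 typhasterol array B and mock array A. The size of the change in dim genes moved with the added constant. With 1 added in place of 5 the log2 change was -2.53 for AT2G45600, -2.11 for AT1G47655 and -1.99 for AT3G03870, and with 32 added it was -0.62, -0.57 and -0.57. With 32 added it also shrank by more than 1.5 times for AT5G63820 (0.75), AT5G58660 (-0.70), AT2G39920 (-0.67), AT3G04010 (-1.02), AT5G02540 (-0.95) and EXLA2 (1.75), and of these 9 genes AT1G47655 alone lost its call there. Leaving out each array in turn ended no call for the other 10 named falls, nor for 14 of the 15 named rises.

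The largest fall of all was again at a probe set that names no gene. That probe set, 256598_at, had 20.0 and 22.6 after typhasterol, against 473 and 530 in mock. Another without a gene name, 259839_at, had 69.0 and 34.5 after typhasterol, against 803 and 480.4 in mock. The log2 changes were -4.26 ± 0.27 and -3.53 ± 0.27, the second smaller in size than those of AT5G57785 and AT5G01740.

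Adjacent genes were called together in a few places. Among 3600 pairs of neighbouring genes in which both were tested, 5 had both members higher, 2 both lower and 1 a member each way, while in 225 (6.25%) exactly 1 member was called. The pairs that rose were XTH18 and XTH19, AT1G29660 and AT1G29670, AT1G27200 and AT1G27210, AT2G32560 and AT2G32580, and AT3G05900 and AT3G05910. The pairs that fell were P1R1 with AT5G57785, and AT4G37550 with AT4G37560. Neighbours were taken from the RefSeq table of assembly TAIR10.1, and these pairs were picked out after their values were seen.

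Most genes on the array carry a locus code only, and 1305 tested probe sets name a gene with a symbol of its own. Of these, 47 were called higher (3.60%) and 10 lower (0.766%). This set is complete but was chosen after its values were seen. Besides the genes above it holds further genes of the cell wall. CSLC04, which makes the glucan backbone of xyloglucan, had 679 and 657 after typhasterol against 212 and 233 in mock. Its arrays agreed closely within each group, and its log2 change of 1.57 ± 0.15 kept its call in all alternatives. TBL45 and TBL37 belong to a family of polysaccharide acetyltransferases, and they changed by 1.37 ± 0.16 and 0.57 ± 0.14. GAUT15, of a family of pectin-synthesising glycosyltransferases, changed by 0.86 ± 0.17. SKU5, a membrane-anchored protein needed for straight root growth, changed by 0.71 ± 0.18. GH9A3, of the endoglucanase family, was lower, with 21.8 and 18.6 after typhasterol against 47.3 and 38.5 in mock and a log2 change of -0.92 ± 0.23. Among these genes TBL45 kept its call without each array, while TBL37, GAUT15, SKU5 and GH9A3 each lost theirs without at least 1.

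In the receptor kinase list 1 of 2 tested members, THE1, rose and 0 fell, against 2.26% and 1.03% of all probe sets naming 1 gene. THE1 (THESEUS1), which monitors wall integrity, had 252 and 191 after typhasterol, against 112 and 84.5 in mock. RALFL33, which encodes a peptide hormone of the RALF family, had 409 and 319.9 after typhasterol, against 172 and 159 in mock. The groups did not overlap for either gene, and the log2 changes were 1.13 ± 0.16 and 1.10 ± 0.15. A second gene of the RALF family, RALFL22, had 627 and 526 after typhasterol against 497 and 295 in mock, and its change of 0.58 ± 0.16 was lost under 7 of the alternatives. FER (FERONIA), a related receptor kinase that binds a RALF peptide, had 1236 and 916 after typhasterol against 1004 and 671 in mock. Its arrays overlapped and its log2 change of 0.37 ± 0.13 did not pass (adjusted p = 0.146, limma). PTI1-4, a cytosolic protein kinase gene, changed by 1.69 ± 0.21.

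In the list of Aux/IAA repressors and GH3 enzymes 1 of 10 tested members rose, which was GH3.3, and 0 fell, against 2.26% and 1.03% of all probe sets naming 1 gene, with a median log2 change of 0.02. GH3.3, which conjugates auxin to amino acids, had 182 and 80.2 after typhasterol, against 77.5 and 38.6 in mock. The A and B arrays differed so much that the lower typhasterol value was close to the higher mock value, and the change of 1.07 ± 0.21 was not called without the block, without typhasterol array A or without mock array B (adjusted p over all alternatives 0.00175 to 0.403, limma). IAGLU, which attaches glucose to auxin, had 54.4 and 58.4 after typhasterol against 142 and 108 in mock, a log2 change of -1.07 ± 0.24 that was not called without typhasterol array A, typhasterol array B or mock array A. WAG2, a kinase that acts on auxin carriers, changed by 1.02 ± 0.21 and lost its call without either B array. The other members of the Aux/IAA and GH3 list lay between -0.42 ± 0.29 for GH3.9 and 0.22 ± 0.51 for IAA20.

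Transcription factor genes with a call included BZIP34 (1.37 ± 0.33), BZIP61 (1.36 ± 0.20), BZIP53 (0.63 ± 0.16) and BZIP60 (0.56 ± 0.14), the last a regulator of the unfolded protein response, and UPB1 (0.95 ± 0.26), a basic helix-loop-helix factor of the root. BZIP61 had 235 and 219 after typhasterol, against 99.6 and 73.5 in mock. BZIP61 kept its call without each array but not without the block, BZIP34, BZIP53 and BZIP60 lost theirs without each of the 4 arrays, and UPB1 lost its call without typhasterol array B, mock array B or the block, and in several other alternatives. In the basic helix-loop-helix list, which does not hold UPB1, 0 of 7 tested members were called by limma. Of all probe sets naming 1 gene, 2.26% were called higher and 1.03% lower. In the list 1 member had an unadjusted p under 0.05, as had 2330 of the 17606 tested probe sets. That list holds mainly factors of iron supply such as bHLH104 (0.43 ± 0.17) and ILR3 (-0.02 ± 0.14).

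Of calcium-binding proteins with EF-hands, 1 of 7 tested members rose and 0 fell, against 2.26% and 1.03% of all probe sets naming 1 gene, with a median log2 change of 0.26. The list was matched on symbols and synonyms and held 43 genes. EF-hand genes without a matching name are not counted in it, whether they rose or not. CML42 had 188 and 205 after typhasterol against 137 and 132 in mock, a change of 0.53 ± 0.14 that was lost under 9 alternatives. CML38 had 67.9 and 57.4 after typhasterol against 25.3 and 20.2 in mock. Its groups did not overlap, but its error was large and the change of 1.29 ± 0.50 did not pass (adjusted p = 0.210, limma).

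Other called genes act in metabolism, protein turnover and the cell cycle. MSRB9, a methionine sulfoxide reductase, had 1467 and 1376 after typhasterol against 538 and 634 in mock, a log2 change of 1.28 ± 0.17. NANA, a chloroplast aspartic protease, changed by 1.36 ± 0.23, HMT-1, a homocysteine methyltransferase, by 0.89 ± 0.14 and FATB, which releases fatty acids from their carrier, by 0.66 ± 0.11. XERICO, a ring-finger gene linked to abscisic acid, changed by 0.79 ± 0.17 and GTR1, a glucosinolate transporter, by 0.76 ± 0.20. MSRB9, HMT-1 and FATB kept their calls in all alternatives and NANA in all but the fit without the block. XERICO lost its call without either B array or the block, and GTR1 without each of the 4 arrays or the block.

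Among the lower genes with a symbol, BRH1, a ring-finger gene named for its brassinosteroid response, had 361 and 337 after typhasterol against 701 and 492 in mock. Its log2 change of -0.74 ± 0.13 kept its call without each array but not without the block. HCT, an enzyme of lignin synthesis, changed by -0.66 ± 0.12, not called without either A array. SIM (SIAMESE), an inhibitor of cyclin-dependent kinases, had 95.6 and 94.5 after typhasterol against 227 and 139 in mock (-0.87 ± 0.21), not called without either A array or the block. SKP2A, an F-box protein gene of the cell cycle, changed by -0.83 ± 0.23 and PUB25, a ubiquitin ligase gene, by -1.05 ± 0.29. Both lost their calls without each of the 4 arrays. Of all 57 called genes with a symbol, 21 passed in each fit that left out 1 of the 4 arrays, and 27 passed without the block.

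The remaining called genes with a symbol changed by less than 1 on the log2 scale. DRT100, which encodes a leucine-rich repeat protein, had 986 and 788 after typhasterol against 664 and 406 in mock (0.76 ± 0.14). The actin gene ACT11 had 138 and 183 after typhasterol against 94.3 and 79.4 in mock (0.84 ± 0.22), and the tetraspanin gene TET10 had 177 and 161 after typhasterol against 98.7 and 99.1 in mock (0.74 ± 0.14). None of these 3 overlapped between the groups, and each lost its call without at least 1 array: DRT100 without mock array B, TET10 without typhasterol array A, and ACT11 without typhasterol array A, typhasterol array B or mock array B. DRT100 and ACT11 were not called without the block either. IQD22 and iqd32, of a family that binds calmodulin, changed by 0.94 ± 0.20 and 0.63 ± 0.17. PRA1.B6 and PRA1.B4, of a family of membrane traffic proteins, changed by 0.67 ± 0.14 and 0.64 ± 0.18. AOP1, at a locus of glucosinolate side-chain modification, changed by 0.78 ± 0.20 and GPDHC1, a glycerol-3-phosphate dehydrogenase, by 0.61 ± 0.17. SETH3, AR781, SGT1A, AILP1 and SRC2 lay between 0.64 ± 0.17 for SRC2 and 0.83 ± 0.16 for SETH3. JAL22, a jacalin-related lectin gene, was lower, with 107 and 84.0 after typhasterol against 165 and 129 in mock (-0.60 ± 0.14). Each gene of this paragraph from IQD22 to JAL22 also lost its call without at least 1 array. GPDHC1, AILP1, SRC2 and JAL22 lost theirs without each of the 4 arrays. Both iqd32 and GPDHC1 were called in 4 of 13 alternatives only.

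Gene lists for other processes held few calls. Of 32 lists 22 had a tested named member, and 10 had none, among them brassinosteroid synthesis, SAUR genes and arabinogalactan proteins, which were not analysed here. In the UDP-glycosyltransferase list 0 of 30 tested members rose and 2 fell, against 2.26% and 1.03% of all probe sets naming 1 gene. Those that fell were IAGLU and UGT88A1 (-0.60 ± 0.14), and UGT88A1 lost its call without typhasterol array A, mock array A or the block. The median log2 change of the list was -0.15, and 8 members had an unadjusted p under 0.05 (limma). Among all 17606 tested probe sets 2330 had one. In the cytochrome P450 list, nearly all of it the CYP71B family, limma called 0 of 16 members, against the same 2.26% and 1.03%. Of these members 3 had an unadjusted p under 0.05, and the median was -0.24. The summed intensity of the P450 list was 683 to 693 after typhasterol, against 804 to 816 in mock. The brightest members weigh most in such a sum. CYP71B6, the brightest, had 157 and 180 after typhasterol against 191 and 236 in mock and was not called (-0.33 ± 0.15). For tubulins and their folding factors limma called 0 of 9 members, again beside 2.26% and 1.03%. In this list 2 members had an unadjusted p under 0.05, and the median was 0.12. The beta-tubulin gene TUB1 had 381 and 366 after typhasterol against 257 and 264 in mock and narrowly missed the threshold (0.51 ± 0.15, adjusted p = 0.0552, limma).

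Few genes of hormone signalling had a named probe set. BAT1, an acyltransferase that inactivates brassinosteroids, changed by 0.13 ± 0.22. BIM1, a partner of BES1, changed by 0.09 ± 0.18. The gibberellin signalling genes SLY1 and SLY2 changed by -0.22 ± 0.19 and -0.05 ± 0.24. limma called 0 of these 4 genes, against 2.26% higher and 1.03% lower of all probe sets naming 1 gene. None had an unadjusted p under 0.05, as 2330 of the 17606 tested probe sets had. With 4 genes and such shares, a count of 0 tells little about hormone signalling.

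**Figure D3:**
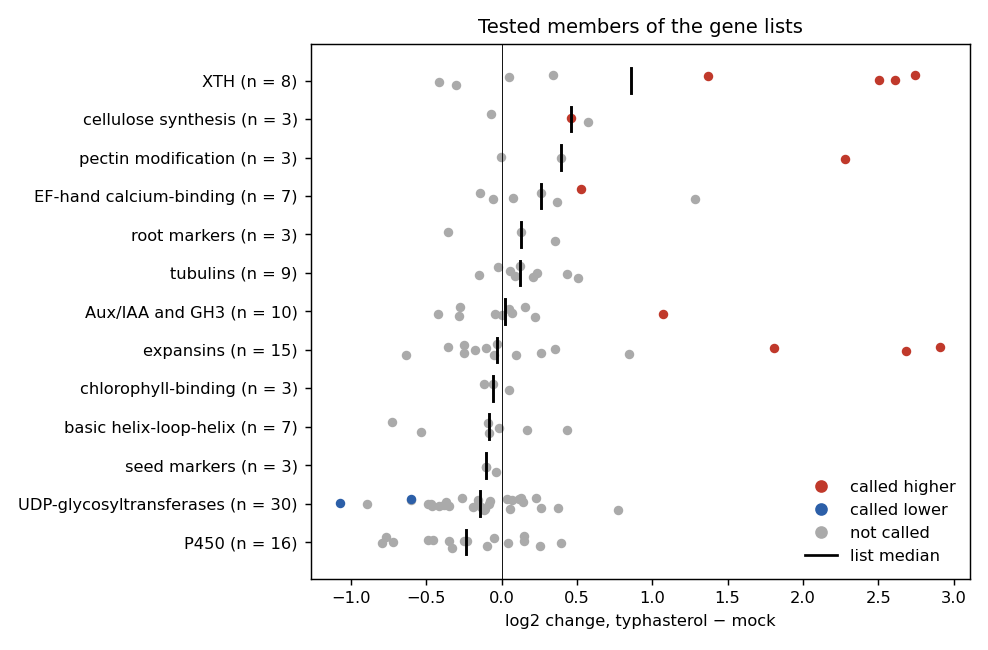
Log2 change (typhasterol minus mock, x axis) of each tested member of the 13 lists with 3 or more tested members, 1 point per gene, red where called higher, blue where called lower and grey otherwise, with the list median as a black bar. Red points stand between 1.37 and 2.75 in the XTH list and between 1.81 and 2.91 in the expansin list, while the tubulin, P450 and chlorophyll-binding lists hold grey points only.

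Markers of leaf, root and seed were compared between the groups by their intensities, and without detection calls their presence was not assessed. The light-harvesting genes LHCB4.1, LHCB4.2 and LHCB4.3 of green tissue summed to 3465 to 3599 after typhasterol and 3491 to 3700 in mock. In this list limma called 0 of 3, with 0 at an unadjusted p under 0.05. Of all probe sets naming 1 gene, 2.26% were called higher and 1.03% lower. An unadjusted p under 0.05 was found at 2330 of the 17606 tested probe sets. In a list of 3, a count of 0 therefore tells little. The root genes PYK10, EXPA7 and EXPA18, the last 2 also in the expansin list, summed to 2036 to 2249 after typhasterol and 1818 to 2197 in mock. Of the root genes limma called 0 of 3, and 0 had an unadjusted p under 0.05. Of 3 tested seed markers limma called 0, again with 0 at an unadjusted p under 0.05, and OLEO3, an oil body protein gene of seeds, stood at 28.4 and 7.62 after typhasterol and 16.8 and 15.4 in mock. The seed markers summed to 1051 to 1228 after typhasterol and 1178 to 1252 in mock. The summed levels of leaf, root and seed markers thus overlapped between the groups. The brightest member weighs most in such a sum. After typhasterol PYK10 had 1874 and 1692 in the root list, and AT2G44060 had 886 and 1087 in the seed list. Beside PYK10, EXPA7 changed by 0.35 ± 0.19 and EXPA18 by -0.35 ± 0.24, which the root sum hides.

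The typhasterol levels can be set beside those of the other groups as values. EXO averaged 1257 ± 187 after typhasterol, 1205 ± 156 after 3-dehydroteasterone, 932 ± 25.3 after teasterone and 739 ± 136 after 6-deoxotyphasterol, all at 1 µM, and 170.3 ± 50.6 in mock (SD, n = 2 each). At other doses it averaged 1548 ± 493 after castasterone at 100 nM, 1160.0 ± 103 after brassinolide at 10 nM and 207 ± 71.3 after campestanol at 10 µM. AT5G57785 averaged 32.01 ± 5.15 after typhasterol, 40.1 ± 13.1 after castasterone at 100 nM, 37.3 ± 8.56 after brassinolide at 10 nM, 521 ± 45.9 after campestanol at 10 µM and 519 ± 62.3 in mock. XTH19 averaged 584 ± 53.4 after typhasterol, 795 ± 106 after castasterone at 100 nM, 823 ± 88.0 after brassinolide at 10 nM and 93.5 ± 31.6 in mock. The doses differ, so no test was made between typhasterol and these 3 compounds.

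**Figure D4:**
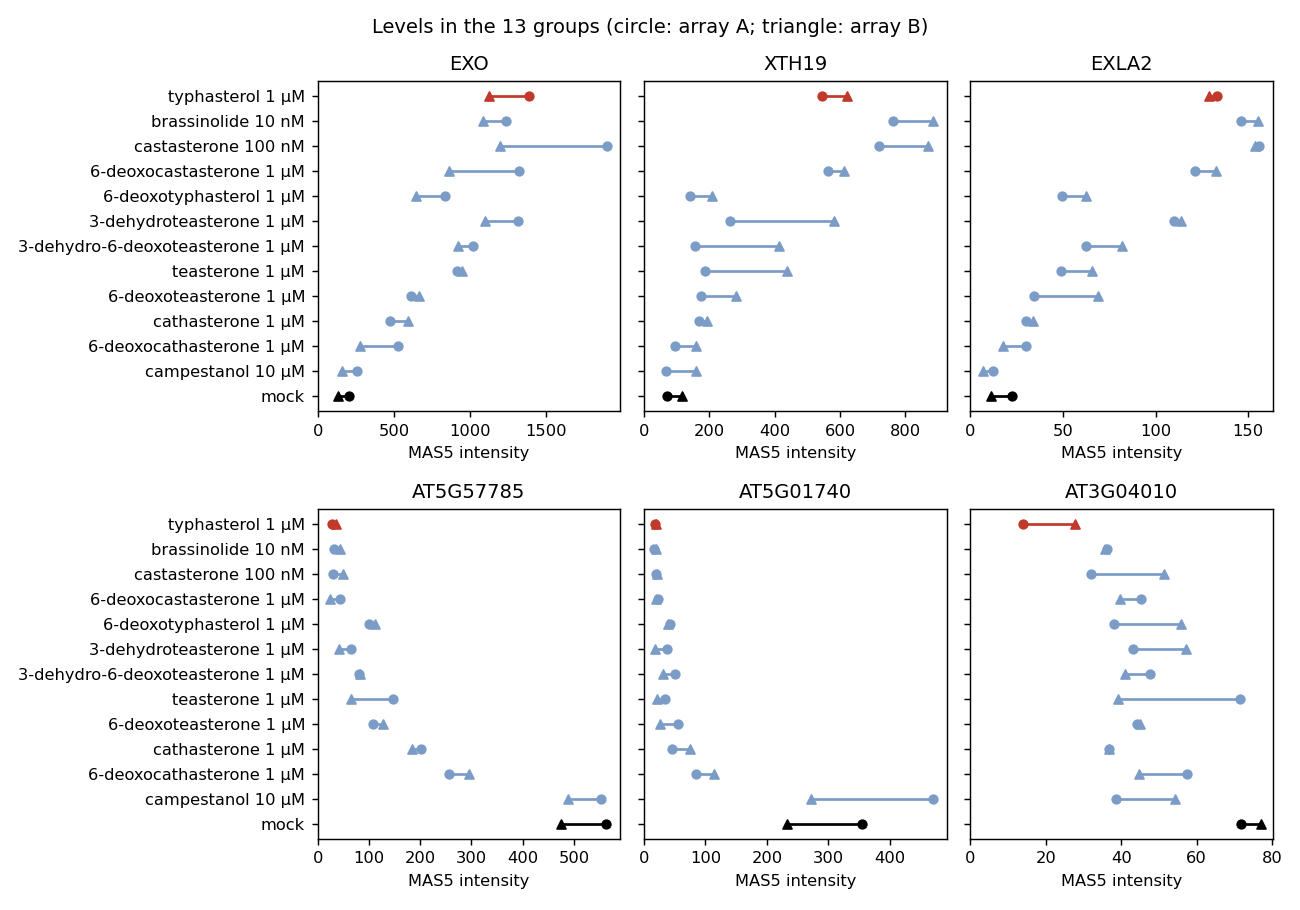
MAS5 intensity (x axis, linear) of 3 genes that rose and 3 that fell after typhasterol, in the 13 groups with their doses, circles for A arrays and triangles for B arrays joined by a line. Typhasterol (red, top) lies far from mock (black, bottom) in all 6 genes, and in AT3G04010 both of its arrays are lower than those of the other groups.

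Compounds given at the same dose and time as typhasterol allow a direct test that uses no mock array. The number of such pairs compared was 3, with p-values adjusted over the tested probe sets of the pairs together. 6-Deoxotyphasterol lacks the ketone at C-6, 3-dehydroteasterone has a ketone in place of the hydroxyl at C-3, and teasterone has its C-3 hydroxyl in the opposite orientation. The 30 named genes were chosen on the same typhasterol arrays, so their differences describe the pairs and lean toward typhasterol.

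Between typhasterol and 6-deoxotyphasterol limma called 9 probe sets (0.0511%), 4 higher (0.0227%) and 5 lower (0.0284%) after typhasterol. XTH19 had 546 and 621 after typhasterol, against 141 and 209 after 6-deoxotyphasterol. The groups did not overlap, and the log2 difference was 1.73 (95% interval 1.19 to 2.27, adjusted p = 0.0145, limma). AT1G30690 had 269 and 341 after typhasterol, against 137 and 176 after 6-deoxotyphasterol, a log2 difference of 0.94 (0.62 to 1.27, adjusted p = 0.0270, limma). The other 7 called probe sets name no gene, and each was also called against mock in the same direction. Among those that fell are 256598_at (-1.69, -2.24 to -1.13) and 259839_at (-2.28, -2.83 to -1.72). Of the 15 named rises 14 had an unadjusted 95% interval above 0, and of the 15 named falls 14 had one below 0, with median differences of 0.92 and -0.96. Among all 17606 tested probe sets 1166 had an unadjusted p under 0.05 (limma) in this pair, in either direction. The named genes were not a free sample of these, as they were chosen on the typhasterol arrays. EXO differed by 0.77 (0.31 to 1.22) and EXLA2 by 1.17 (0.59 to 1.74). XTH18 and AT5G57785 missed the threshold at 1.69 (1.06 to 2.32) and -1.59 (-2.19 to -1.001), with an adjusted p of 0.0512 each (limma).

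The other tested xyloglucan genes varied in that pair. XTH33 differed by 1.00 (0.43 to 1.57) and XTH16 by 0.52 (0.08 to 0.96). EXGT-A3 differed by -0.05 (-0.43 to 0.33), XTH26 by -0.07 (-0.51 to 0.36) and XTH32 by -0.27 (-0.63 to 0.09). XTH20 was lowest at -0.48 (-1.21 to 0.24). The intervals of EXGT-A3, XTH26, XTH32 and XTH20 each include 0, and these genes were not called against mock either.

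Between typhasterol and 3-dehydroteasterone limma called 1 probe set (0.00568%), AT1G74300, which was lower after typhasterol. It had 5.57 and 3.40 after typhasterol, against 22.1 and 24.2 after 3-dehydroteasterone, a log2 difference of -1.58 (-2.13 to -1.02, adjusted p = 0.0345, limma), at intensities near the bottom of the scale. Against mock it was lower too, by -1.17 ± 0.27. The intervals of 13 of the 15 named rises and of 10 of the 15 named falls included 0, and the median differences were 0.26 and -0.37. EXO differed by 0.06 (-0.40 to 0.51), AT4G27280 by -0.01 (-0.46 to 0.45) and P1R1 by -0.03 (-0.47 to 0.41). Together these intervals reach from -0.47 to 0.51 on the log2 scale, and they do not show that the compounds acted alike. XTH19 differed by 0.56 (0.02 to 1.10) and AT3G04010 by -1.13 (-1.70 to -0.56), without passing (adjusted p = 0.924 and 0.298, limma).

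Between typhasterol and teasterone limma called 3 probe sets (0.0170%), all higher after typhasterol. AT1G30690 had 269 and 341 after typhasterol, against 127 and 182 after teasterone, and AT1G67930 had 269.7 and 228 after typhasterol, against 109 and 141 after teasterone. Both differed by 0.97 (0.65 to 1.30 for AT1G30690 and 0.64 to 1.30 for AT1G67930, adjusted p = 0.0215 and 0.0270, limma). The other, 247069_at, names no gene and differed by 0.78 (0.53 to 1.03). AT1G30690 and 247069_at were also the probe sets called higher against both 6-deoxotyphasterol and teasterone, 2 comparisons that share the typhasterol arrays. Of the named rises 13 of 15 had an unadjusted interval above 0, and of the named falls 14 of 15 had one below 0, with medians of 0.87 and -0.66. These genes were chosen on the typhasterol arrays. Among all 17606 tested probe sets 996 had an unadjusted p under 0.05 (limma) in this pair, in either direction. XTH18 differed by 1.38 (0.75 to 2.01) and AT1G29660 by 1.37 (0.73 to 2.01), while EXO differed by 0.42 (-0.03 to 0.88) and AT5G01740 by -0.42 (-1.07 to 0.23). The teasterone arrays were far apart in several of these genes, with AT1G29660 at 79.6 on A and 332 on B.

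The calls in these pairs were few and depended on the fit. Without the replicate block limma called 0 probe sets in each of the pairs. An unadjusted p under 0.05 was found at 633 probe sets for 6-deoxotyphasterol, 293 for 3-dehydroteasterone and 544 for teasterone without the block, and at 1166, 625 and 996 with it, in the same order. For 6-deoxotyphasterol the count was 3 without typhasterol array A and 3 without either 6-deoxotyphasterol array. For 3-dehydroteasterone it was 1, a different probe set that was higher after typhasterol, without 3-dehydroteasterone array A and 0 without typhasterol array A, typhasterol array B or 3-dehydroteasterone array B. For teasterone the called probe sets changed with the array left out. Without typhasterol array A the call was a different probe set that was lower after typhasterol. Without typhasterol array B only part of the 3 calls remained, and without teasterone array A none did. Without teasterone array B more probe sets were called, in both directions.

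**Figure D5:**
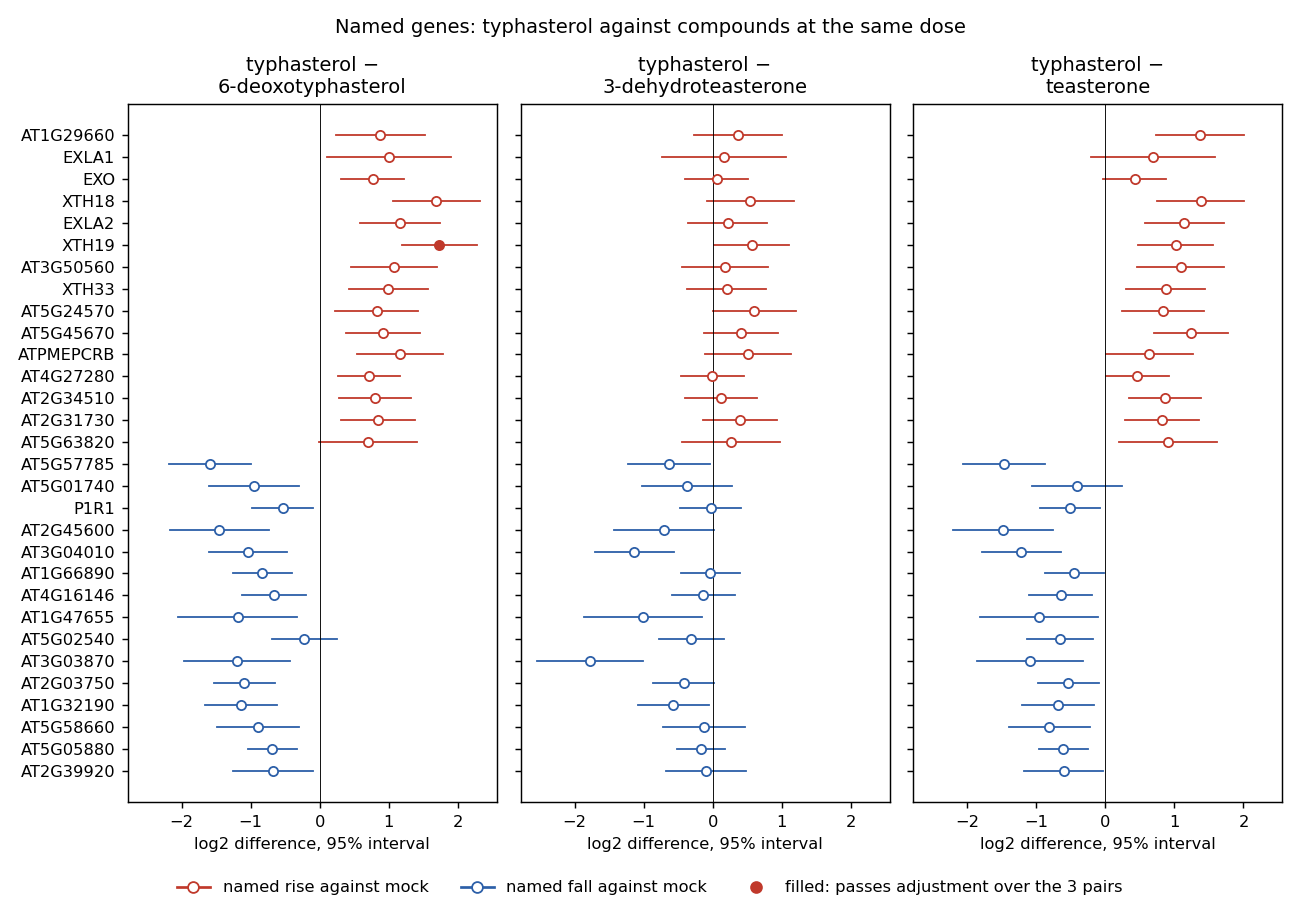
Log2 difference (x axis, typhasterol minus the other compound, with 95% intervals) of the 30 named genes for 6-deoxotyphasterol, 3-dehydroteasterone and teasterone, all at 1 µM, with rises against mock in red and falls in blue. Nearly all intervals lie off 0 in the left and right panels, most include 0 in the middle panel, and XTH19 against 6-deoxotyphasterol is the only filled point.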

How the data were processed

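The files held 1 table of probe set values for 26 ATH1 arrays hybridised with biotin-labelled RNA. The deposited values are linear intensities. The authors made them with MAS5 according to GEO's list of tools, that is, per the submitters' processing notes. For MAS5 no version or parameters are given in the sources used here, and detection calls were not used. No further normalization was applied. Intensities were transformed as log2(value + 5), which understates changes at low intensity. The fit was made with limma 3.58.1 (R 4.3.3) over all 26 arrays with 13 group coefficients, the letter as a block (12 residual degrees of freedom) and an intensity trend in eBayes, and its scripts were tested on simulated data. The block was used because the rule of the comparison names it. Deviations of same-letter arrays from their group means correlated above 0.1 in 76 of 78 pairs of groups (0.316 for typhasterol and mock), but not in all, so the letters do not strictly pair the samples. A platform table named 1 gene for 13513 probe sets, several for 503 and none for 8730, and 13436 were matched to RefSeq symbols (TAIR10.1). Genes were named by the rule given in the text, and list members as examples of their list. The comparison, the gene lists and the naming rule were chosen with earlier results of these data known. Promoter sequences were not used here, so a planned description of promoter motifs was not made. Precision is limited by 2 arrays a group. No pair of arrays held identical values (0 found).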

Additional observations from a re-analysis of the deposited data

How the results depend on the processing

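Alternatives to the fit were the replicate block, the arrays included, pseudocounts of 1 and 32, no intensity filter or one of 50, quantile normalization, median centring, no eBayes trend and each array left out. No gene named for its size of change and no called gene with a symbol changed direction in them. By contrast, the probe set called against 3-dehydroteasterone without its array A was another one, higher after typhasterol. The probe set called against teasterone without typhasterol array A was likewise another one, lower after typhasterol. Against mock, 709 calls became 312 without the replicate block and 329 to 451 with 1 array left out, and the other settings gave 556 to 831. Without the block, 15 of 15 named rises were still called and 13 of 15 named falls, AT2G45600 and AT1G47655 being lost. The 9 calls against 6-deoxotyphasterol became 0 without the block, 302 with only the arrays of that pair, 15 at a minimum of 50, 3 without the trend, 18 adjusted within the pair alone and 3 to 7 with 1 array left out. The 1 call against 3-dehydroteasterone became 0 without the block, with a pseudocount of 32, with no filter, at a minimum of 50 and adjusted within the pair alone, 30 with only its arrays and 0 to 1 with 1 array left out. The 3 calls against teasterone became 0 without the block or the trend, 79 with only its arrays and 0 to 19 with 1 array left out. The fits with only 4 arrays leave 1 residual degree of freedom per probe set and borrow the rest. The cause of these shifts was not tested. Dim probe sets limit the comparison, since without detection calls a low intensity cannot be told from background.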
